A study of Homo sapiens with 14 samples.

Results

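The genes described here are 10 feedback regulators and direct outputs of ERK signalling, DUSP4, DUSP5, DUSP6, SPRY1, SPRY2, SPRY4, SPRED1, SPRED2, ETV4 and ETV5, out of 58825 gene identifiers counted by RNA sequencing. They were selected on their CPM with GSK-J5 and GSK-J4 in each line and time, listed by name with those levels known, so their differences between compounds and between lines are given as a description, and counts of genes past a threshold support nothing. The cells were the human ovarian cancer lines OVCAR-3, CAOV3 and SKOV3. They were treated with 2.5 µM GSK-J4, a cell-permeable inhibitor of the H3K27 demethylases KDM6A (UTX) and KDM6B (JMJD3), or with GSK-J5, its isomer used as the inactive control. The groups were OVCAR-3 with GSK-J5 or GSK-J4 for 48 h (n = 2 libraries each), and OVCAR-3, CAOV3 and SKOV3 with GSK-J5 or GSK-J4 for 72 h (n = 3 each), 22 libraries in 14 samples. Each line stood for itself alone, was grown in its own medium (RPMI 1640, DMEM/F12 or McCoys), and no library without a compound was analysed here. Line and medium therefore cannot be told apart. Replicates 1 and 2 formed a first library set, for which the labels name stripped medium during treatment. Replicate 3 was a second set with another RNA kit and poly(A) enrichment, and its labels do not mention stripping.

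ERK is the last kinase of the chain that runs from growth factor receptors through RAS, RAF and MEK. Active ERK switches on genes whose products shut the same chain down, so their transcripts are widely read as a gauge of pathway output. DUSP4 and DUSP5 are nuclear phosphatases and DUSP6 a cytoplasmic one, and all of them remove phosphate from ERK. Sprouty proteins (SPRY1, SPRY2, SPRY4) and Spred proteins (SPRED1, SPRED2) act upstream, between the receptor, RAS and RAF, and SPRED1 brings neurofibromin to RAS. ETV4 and ETV5 are ETS transcription factors of the PEA3 group, which ERK signalling induces in part by relieving repression by CIC.

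Levels are CPM, counts relative to the size of the library after TMM scaling, comparable for 1 gene between libraries. Differences are edgeR log2 values of GSK-J4 over GSK-J5 with a standard error (SE), from models with the library set as a term. The libraries held 24037007 to 37990707 counts, and the lowest raw count of any of the 10 genes in a library was 39, for DUSP6, so all of them lay above the limit of 3 counts that a count of 0 allows. All 10 passed the filter on low counts in every comparison. Epithelial markers were present in every line, though EPCAM (3.38 to 19.9 CPM) and CDH1 (0.457 to 9.75 CPM) were low in SKOV3. With GSK-J4 in OVCAR-3 at 48 h the keratins KRT8 (log2 -1.06, SE 0.207) and KRT18 (-1.16, SE 0.222) and the ovarian marker WT1 (-2.08, SE 0.592) fell by edgeR, while EPCAM was at -0.06 and CDH1 at 0.05, and the part of these shifts in the results was not tested. Of the ovarian markers, WT1 was at most 0.124 CPM in CAOV3 and MUC16 at most 0.365 CPM in SKOV3. CDKN2A was at 0 in all 6 SKOV3 libraries, which allows up to 0.125 CPM in the shallowest library. The second SKOV3 set stood apart under both compounds: ERBB2, the receptor gene amplified in this line, had 2495 CPM with GSK-J5 and 2452 with GSK-J4, against 11454 to 14735 CPM in the first set. In OVCAR-3 at 72 h, 14714 and 14680 genes reached 10 counts in the first set with GSK-J4, against 16231 in replicate 3 and 16444 to 16504 with GSK-J5. The summed fibroblast markers of OVCAR-3 ran from 7.29 to 37.7 CPM with GSK-J4 and from 32.0 to 49.7 with GSK-J5, leukocyte markers from 0.616 to 5.37 and 1.31 to 5.77, and endothelial markers from 0.154 to 2.20 and 2.89 to 3.81. COL1A1 made up most of the fibroblast sum (7.29 to 49.3 CPM), VWF reached 3.81 CPM, and CD14 reached 4.27 CPM in OVCAR-3 and 52.3 to 111 CPM in CAOV3. Of the other genes of these lists, DCN, PDGFRB, CD3E, PECAM1 and CDH5 were under 1 CPM in every OVCAR-3 library and PTPRC reached 1.00 CPM at most, and the part of these shifts in the results was not tested.

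Promoter sequence is shown for 3 of the genes because they took different courses in OVCAR-3 at 48 h: SPRY2 higher with GSK-J4, SPRY1 close to its control level, and DUSP6 lower. RefSeq on GRCh38.p14 gave 10 start site windows for 6 of the 10 genes, SPRY1, SPRY2, SPRY4, SPRED1, SPRED2 and DUSP6, and the 250 bases before each start were searched on both strands. Capitals mark the ETS core, and each sequence reads 5′ to 3′ in the direction of its gene.
SPRY2 (chr13:80341127-80341376, minus strand): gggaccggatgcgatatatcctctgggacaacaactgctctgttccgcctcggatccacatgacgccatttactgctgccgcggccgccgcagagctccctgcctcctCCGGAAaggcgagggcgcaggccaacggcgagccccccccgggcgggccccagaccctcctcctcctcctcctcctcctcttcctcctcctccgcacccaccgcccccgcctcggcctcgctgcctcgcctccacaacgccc
SPRY1 (chr4:123398136-123398385, plus strand): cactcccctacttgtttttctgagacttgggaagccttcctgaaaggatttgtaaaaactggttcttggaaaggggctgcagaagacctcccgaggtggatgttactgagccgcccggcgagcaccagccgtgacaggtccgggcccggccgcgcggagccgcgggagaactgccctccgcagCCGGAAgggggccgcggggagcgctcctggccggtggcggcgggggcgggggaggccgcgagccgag
DUSP6 (chr12:89352502-89352751, minus strand): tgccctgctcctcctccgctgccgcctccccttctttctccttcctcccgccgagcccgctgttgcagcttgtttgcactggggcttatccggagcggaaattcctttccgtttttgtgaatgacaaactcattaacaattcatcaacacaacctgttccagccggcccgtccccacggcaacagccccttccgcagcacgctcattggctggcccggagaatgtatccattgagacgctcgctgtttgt

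The ETS core CCGGAA lay 142 bases before the start in the SPRY2 window and 67 bases before it in the SPRY1 window, and no other window of the 6 genes held it. Among 35116 promoter windows of the same length, 14.5% held this core. The longer ETS site CCGGAAGT, which contains the core, the CIC octamers TGAATGAA and TGAATGGA, the AP-1 site TGANTCA, the cyclic AMP response element TGACGTCA and its 6-base part TGACGT were found in 0 of the 10 windows. They occurred in 3.42%, 1.40%, 0.832%, 6.57%, 1.65% and 7.10% of all windows. The SPRY2 and SPRY1 windows shown were rich in CpG, with 23 and 24 CpG dinucleotides and 70.4% and 68.0% G or C, against medians of 11 and 58% over all windows. DUSP6 had 16 CpG and 57.2%. A second SPRY1 window and 2 more of SPRY2 had 5 to 13 CpG and no core. These matches describe letters in a window and are not sites of measured binding.

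DUSP5, the nuclear phosphatase specific for ERK (ENSG00000138166.6, GRCh38 chromosome 10, 110497838 to 110511544), was higher with GSK-J4 in all 4 comparisons. In OVCAR-3 at 48 h it had 10.3 and 10.5 CPM with GSK-J5 and 27.2 and 31.7 CPM with GSK-J4, which did not overlap (log2 1.53, SE 0.375, 2.89-fold). At 72 h it had 10.1, 8.15 and 19.2 CPM with GSK-J5 and 32.8, 40.8 and 28.9 CPM with GSK-J4 (log2 1.53, SE 0.372). The groups did not overlap there either, but replicate 3 was high among the controls and lowest among the treated, and without it the value was 2.08 (SE 0.163). In these bulk samples, more cells of one state and more RNA per cell cannot be told apart.

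In CAOV3, DUSP5 had 57.4, 50.6 and 56.8 CPM with GSK-J5 and 100.1, 80.9 and 56.3 CPM with GSK-J4 (log2 0.50, SE 0.129, interval 0.23 to 0.77). Replicates 1 and 2 were above every control and replicate 3 was level with them, and on replicates 1 and 2 alone the value was 0.72 (SE 0.110). In SKOV3 it had 27.3, 22.5 and 74.0 CPM with GSK-J5 and 37.4, 29.8 and 85.9 CPM with GSK-J4 (log2 0.36, SE 0.107). The SKOV3 groups overlapped because replicate 3 was high under both compounds, yet each GSK-J4 library lay above the control of the same number. Without replicate 3 the SKOV3 value was 0.43 (SE 0.153). Over the 11 same-numbered pairs of the study, DUSP5 was higher with GSK-J4 in 10, more than any other of these genes. The exception was replicate 3 of CAOV3.

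DUSP4, an inducible nuclear phosphatase that acts on ERK and other MAP kinases (ENSG00000120875.9, chromosome 8, 29333064 to 29350668), had the largest difference of the 10 in OVCAR-3 and almost none elsewhere. At 48 h it had 2.93 and 4.12 CPM with GSK-J5 and 22.9 and 20.3 CPM with GSK-J4 (log2 2.64, SE 0.437, 6.25-fold). After 72 h the levels were 2.49, 2.85 and 2.42 CPM with GSK-J5 and 21.6, 22 and 6.26 CPM with GSK-J4 (log2 2.48, SE 0.434, 5.58-fold). On replicates 1 and 2 alone the value was 3.10 (SE 0.161, 8.57-fold). All treated OVCAR-3 libraries lay above all controls, with replicate 3 of 72 h 3.49-fold below the mean of replicates 1 and 2. In CAOV3, where DUSP4 was abundant, it had 80.8, 87.3 and 88.2 CPM with GSK-J5 and 90.6, 89.5 and 91.3 with GSK-J4 (log2 0.09, interval -0.10 to 0.28), a small gap without overlap. In SKOV3 it had 69.9, 59.8 and 99.3 CPM with GSK-J5 and 66.0, 58.2 and 126 with GSK-J4 (log2 0.07, interval -0.12 to 0.27), and the groups overlapped.

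DUSP6, the cytoplasmic ERK phosphatase (ENSG00000139318.8, chromosome 12, 89347232 to 89353271), did not follow DUSP4 and DUSP5 in OVCAR-3. At 48 h it had 2.86 and 2.86 CPM with GSK-J5 and 1.93 and 2.03 CPM with GSK-J4 (log2 -0.50, SE 0.426, interval -1.49 to 0.48), a lower level without overlap. The 72 h libraries had 2.86, 1.89 and 2.97 CPM with GSK-J5 and 2.07, 3.85 and 1.95 CPM with GSK-J4 (log2 -0.01, interval -1.06 to 1.04), and the groups overlapped. The sign of the 72 h value depended on the scaling (0.05 with DESeq2 size factors, -0.39 with library totals). In CAOV3 it had 18.7, 20.1 and 28.0 CPM with GSK-J5 and 35.2, 25.2 and 21.1 CPM with GSK-J4 (log2 0.30, interval -0.08 to 0.67), with replicate 3 moving opposite to the others. SKOV3 had 12.9, 15.2 and 4.49 CPM with GSK-J5 and 10.4, 20.2 and 6.49 CPM with GSK-J4 (log2 0.24, interval -0.19 to 0.67). An antisense gene overlaps DUSP6, and the strand setting of the counting is not given in the sources used here.

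Of the Sprouty genes, SPRY2 (ENSG00000136158.12, chromosome 13, 80335976 to 80340951) was higher with GSK-J4 in OVCAR-3. It had 12.0 and 13.9 CPM with GSK-J5 and 24.5 and 26.5 with GSK-J4 at 48 h (log2 1.01, SE 0.208, 2.01-fold). At 72 h it had 12.3, 12.8 and 13.6 CPM with GSK-J5 and 19.7, 20.4 and 15.1 with GSK-J4 (log2 0.49, interval -0.04 to 1.01, and 0.10 with library totals), with no overlap at either time. SPRY4 (ENSG00000187678.9, chromosome 5, 142310427 to 142326455) was among the lowest of the 10 in OVCAR-3. It went from 2.41 and 2.86 CPM to 3.33 and 3.31 at 48 h (log2 0.36, interval -0.27 to 0.99, and 0.15 with library totals). After 72 h SPRY4 had 2.28, 2.10 and 2.14 CPM with GSK-J5 and 3.76, 5.19 and 4.24 with GSK-J4 (log2 1.00, SE 0.286), and here replicate 3 lay between the other treated libraries. SPRY1 (ENSG00000164056.11, chromosome 4, 123396795 to 123403760) had a log2 value of 0.18 at 48 h, which turned to -0.04 with library totals. At 72 h SPRY1 had 21.7, 20.2 and 15.8 CPM with GSK-J5 and 10.7, 12.7 and 22 with GSK-J4 (log2 -0.41, interval -1.12 to 0.30). Replicates 1 and 2 were lower than every control and replicate 3 higher than all of them, and on replicates 1 and 2 alone the value was -0.76 (SE 0.142).

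In CAOV3 and SKOV3 the Sprouty genes differed little between the compounds. The log2 values in CAOV3 were 0.15 for SPRY1, 0.06 for SPRY2 and -0.10 for SPRY4, each with an interval that held 0. In SKOV3 they were -0.22, -0.16 and 0.07, again with intervals that held 0, and every GSK-J4 library of SPRY1 lay below its control of the same number. The SPRY1 level itself fell apart by library set in SKOV3, with 31.7, 37.6 and 3.08 CPM with GSK-J5 and 27.0, 33.4 and 2.49 with GSK-J4.

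The Spred genes were not raised in OVCAR-3. SPRED1 (ENSG00000166068.13, chromosome 15, 38252326 to 38357249) had 23.6 and 23.4 CPM with GSK-J5 and 23.4 and 27.6 with GSK-J4 at 48 h (log2 0.14, and -0.07 with library totals). After 72 h SPRED1 had 22.6, 22.3 and 37.8 CPM with GSK-J5 and 8.32, 9.30 and 31.9 with GSK-J4 (log2 -0.99, SE 0.247). Each treated library lay below its control of the same number, but the groups overlapped through replicate 3, and replicates 1 and 2 alone gave -1.28 (SE 0.137). SPRED2 (ENSG00000198369.10, chromosome 2, 65310851 to 65432637) had a log2 value of 0.00 at 48 h, which became -0.21 with library totals. The 72 h levels were 43.4, 42.2 and 38.7 CPM with GSK-J5 and 28.7, 33.1 and 42.0 with GSK-J4 (log2 -0.29, interval -0.70 to 0.12), so replicate 3 went the other way. In CAOV3 SPRED1 had a log2 value of 0.17 and SPRED2 one of -0.08, and in SKOV3 they had -0.05 and 0.06, all with intervals that held 0. On replicates 1 and 2 alone SPRED1 was 0.36 (SE 0.0911) in CAOV3.

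ETV5 and ETV4 resembled DUSP5 in OVCAR-3. ETV5 (ENSG00000244405.8, chromosome 3, 186046308 to 186110318) had 5.33 and 4.95 CPM with GSK-J5 and 11.3 and 12.1 with GSK-J4 at 48 h (log2 1.22, SE 0.232). At 72 h it had 3.71, 3.40 and 4.91 CPM with GSK-J5 and 8.11, 9.61 and 9.24 with GSK-J4 (log2 1.16, SE 0.251, 2.24-fold). No library overlapped at either time, and replicate 3 took the same course as the others. ETV4 (ENSG00000175832.13, chromosome 17, 43527844 to 43579620) had 24 and 21.5 CPM with GSK-J5 and 38.3 and 37.6 with GSK-J4 at 48 h (log2 0.77, SE 0.294). At 72 h it had 19.2, 13.8 and 19.0 CPM with GSK-J5 and 41.7, 45.8 and 25.5 with GSK-J4 (log2 1.07, SE 0.293), and all treated libraries lay above the controls. In CAOV3 both genes were near 0 (log2 0.11 for ETV4, 0.07 for ETV5). In SKOV3 ETV5 was at -0.02. ETV4 there had 23.1, 18 and 18.3 CPM with GSK-J5 and 29.4, 29.8 and 16.5 with GSK-J4 (log2 0.31, interval 0.01 to 0.62), higher in replicates 1 and 2 and lower in replicate 3. DHX8 overlaps ETV4 on the other strand, and DGKG and an antisense gene overlap ETV5, as SPRY4-AS1 does SPRY4.

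**Figure D1:**
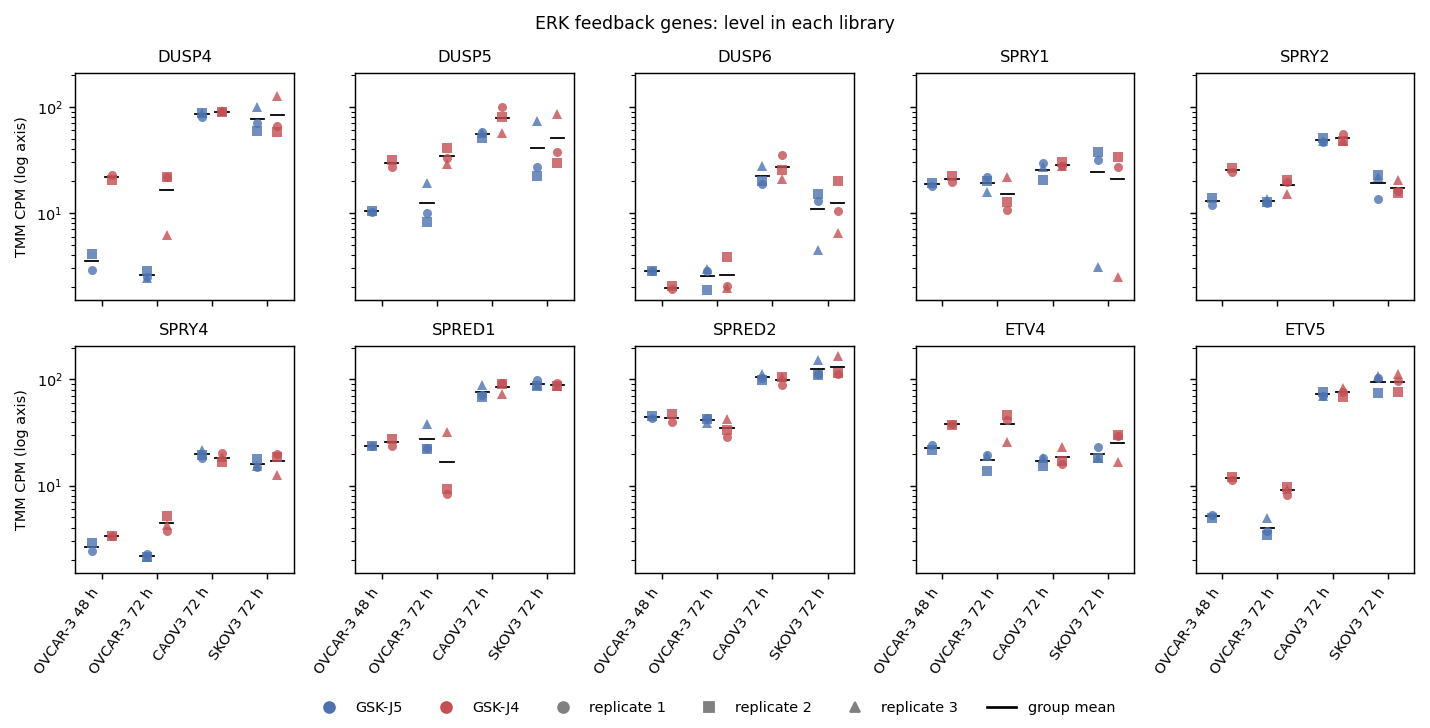
TMM-scaled CPM on a log axis for each of the 10 genes, by line and time, with GSK-J5 in blue and GSK-J4 in red, 1 point per library and a bar at the group mean. DUSP4, DUSP5 and ETV5 lie higher with GSK-J4 in OVCAR-3, where with GSK-J5 DUSP4, DUSP6, SPRY4 and ETV5 are below every library of the other lines, and the third replicate of SPRY1 in SKOV3 sits at 3.08 and 2.49 CPM.

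**Figure D2:**
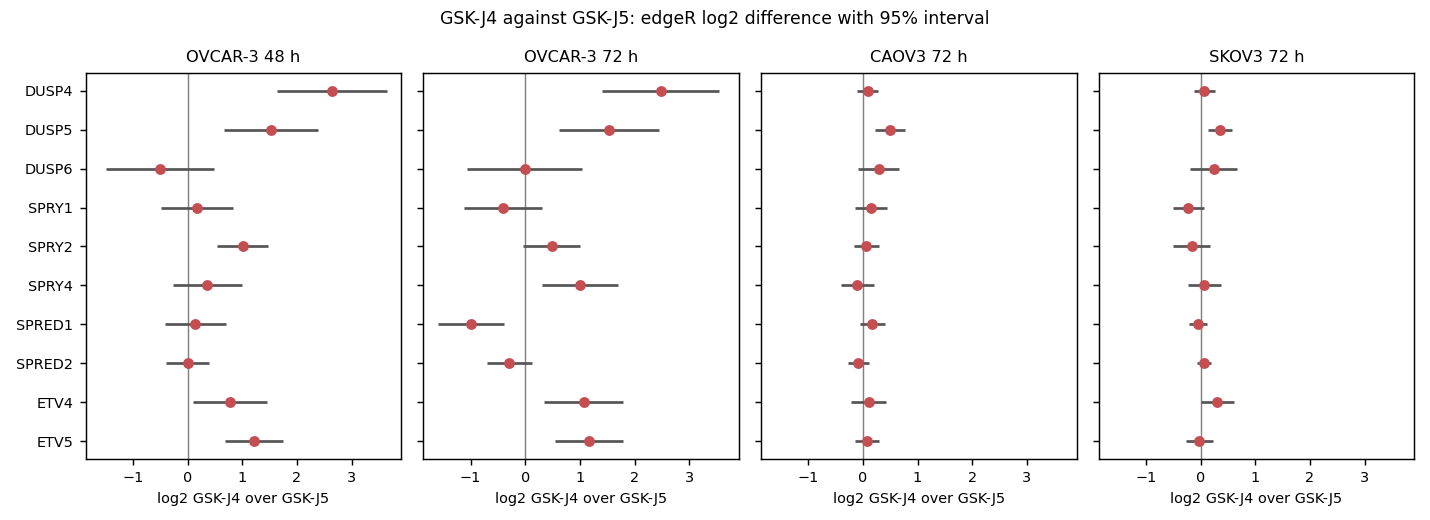
Log2 difference of GSK-J4 over GSK-J5 from edgeR (points) with 95% intervals (lines) for the 10 genes in each line and time. OVCAR-3 spans 2.64 (DUSP4, 48 h) to -0.99 (SPRED1, 72 h), whereas in CAOV3 and SKOV3 the values run from -0.22 (SPRY1, SKOV3) to 0.50 (DUSP5, CAOV3).

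Counted against the adjusted threshold of 0.05, DUSP4, DUSP5, SPRY2 and ETV5 were called higher in OVCAR-3 at 48 h and 0 were called lower, where edgeR called 18.9% of all 17402 genes tested, 11.3% higher. Since the choice of genes used this contrast, nothing is read from the count. Leaving out any single library of 48 h brought it to 0. Without replicate 3 of 72 h, which shares the fit, 5 passed (ETV4 as well), against 59% of all genes. The median log2 value was 0.57 over the 10 genes and -0.03 over all genes tested. Groups did not overlap for 8 of the 10 genes, 7 higher and DUSP6 lower, against 80.7% of all genes with 2 libraries a group (37.8% higher and 42.8% lower).

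In OVCAR-3 at 72 h edgeR called 0 of the 10 genes, against 0.0298% of 16802 genes. At an unadjusted p under 0.05 there were 6, against 43.1% of all genes. limma voom also called 0 and the DESeq2 Wald test 6, against 37% of all genes. The edgeR count moved with replicate 3: without either of its libraries 9 of the 10 passed, 6 higher and 3 lower (SPRY1, SPRED1 and SPRED2). On replicates 1 and 2 alone 71.7% of all genes passed, 34.6% higher and 37.1% lower. With replicate 3 kept, the count also moved with the test and with the libraries sharing the fit. The median was 0.74 over the 10 genes and -0.08 over all genes. In 6 genes, all higher, the groups did not overlap, against 38.4% of all genes, 22.5% higher.

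In CAOV3 0 genes were called by edgeR, against 0.315% of 17137 genes, and 1 had an unadjusted p under 0.05, against 16.3%. DUSP5 alone was called by the DESeq2 Wald test (8.41% of all genes) and by voom (3.24%). Without replicate 3, or without either of its libraries, DUSP5, DUSP6 and SPRED1 were called higher, against 14.1% of all genes on replicates 1 and 2 alone, 6.7% higher. SKOV3 had 0 called of the 10 by edgeR, DESeq2 and voom, with 2 at an unadjusted p under 0.05 (3.5% of all genes), against 0.0412% of 16981 genes, and 0 on replicates 1 and 2 alone, against 0.0908%. Groups did not overlap for DUSP4 alone in CAOV3 (12.3% of all genes) and for 0 of the 10 in SKOV3 (3.45%). The medians were 0.10 and 0.07 over the 10 genes and -0.01 and 0.00 over all genes. Whether the response differed between lines or between times was not tested for these genes, and the values are given side by side.

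In the OVCAR-3 pairs the 10 genes split into those higher with GSK-J4 in every pair, as DUSP5 was, and those that were not. Besides DUSP5 the first group held DUSP4, SPRY2, SPRY4, ETV4 and ETV5. CAOV3 and SKOV3 did not show this split. In SKOV3 the log2 ratios were 0.27, -0.56 and -0.09 for SPRY2 and -0.31, 0.41 and 0.53 for DUSP6. Over all lines, GSK-J4 was higher in 9 of 11 same-numbered pairs for DUSP4, ETV4 and ETV5, in 8 for SPRY4 and in 7 for SPRY2. It was higher in 5 pairs for DUSP6, SPRY1 and SPRED2 and in 4 for SPRED1. A pair was counted where its rounded log2 ratio was above 0.00, and no share over all genes was taken for these counts. Replicate 3 of CAOV3 for SPRY2 and replicate 1 of SKOV3 for SPRED2 were marginally higher with GSK-J4. Their ratios rounded to 0.00, so they are not in these counts. Across the 22 libraries, each taken relative to the mean of its line, time and set on a log2(CPM + 0.5) scale, DUSP5 had a Pearson r of 0.92 with DUSP4, 0.90 with ETV4 and with ETV5, 0.77 with SPRY4 and 0.76 with SPRY2. The value was 0.08 for DUSP6, -0.40 for SPRY1, -0.56 for SPRED1 and -0.60 for SPRED2. Libraries of a pair share their line, time and set, and most of this spread is the OVCAR-3 contrast, so these values describe the libraries and carry no test.

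**Figure D3:**
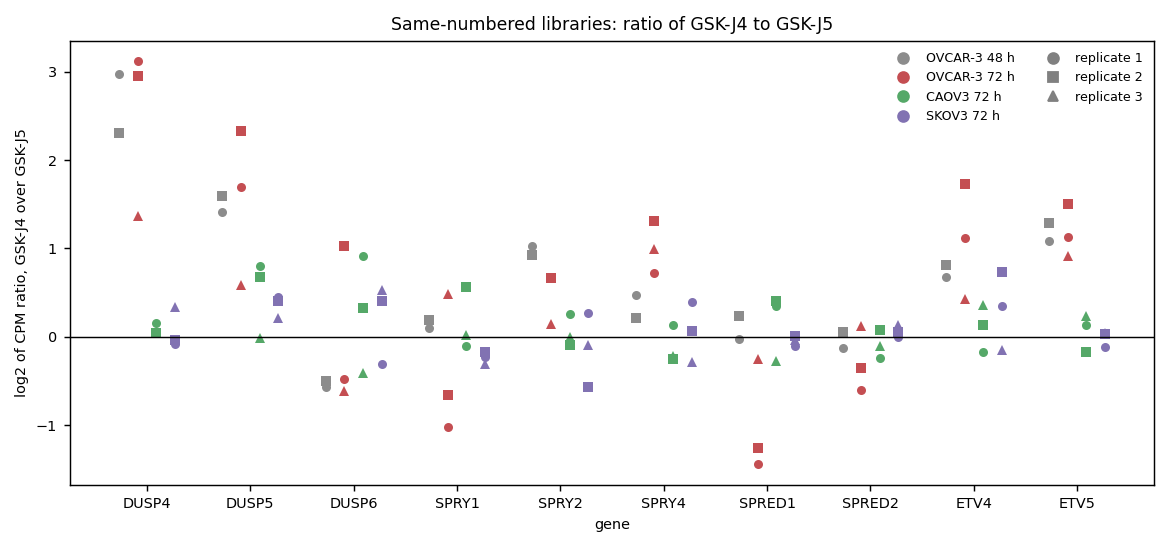
Log2 of the CPM ratio of GSK-J4 to GSK-J5 between libraries of the same number, for each gene, by line and time (colours) and replicate (shapes). DUSP5 is above 0 in 10 of 11 pairs, and the values of replicate 3 of OVCAR-3 lie nearer to 0 than the other OVCAR-3 pairs for DUSP4, DUSP5 and ETV4.

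The 5 genes whose course was most like that of DUSP5 by the same measure, of 12950 ranked, were MRPL42, RRAS2 and RAP1GDS1 (r 0.98) and YRDC and ATG13 (r 0.97). MRPL42, a mitochondrial ribosomal protein gene, went from a mean of 39.5 CPM with GSK-J5 to 83.5 with GSK-J4 in OVCAR-3 at 72 h, and from 61.7 to 65.0 in SKOV3. RRAS2, a small GTPase of the RAS family, went from 44.1 to 112 CPM in OVCAR-3 at 72 h and from 36.6 to 44.2 in CAOV3. In SKOV3 it was level, with 169 and 168 CPM, so its likeness to DUSP5 rests mostly on OVCAR-3. RAP1GDS1, which binds small GTPases, had 35.4 and 108 CPM in OVCAR-3 at 72 h. YRDC, a tRNA modification enzyme, had 16.5 and 83.3, and ATG13, a subunit of the kinase complex that starts autophagy, 110 and 168.

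The second library set moved several of the genes by more than the compound did. In SKOV3, where same-numbered libraries resembled each other, replicate 3 was lower than the mean of replicates 1 and 2 for SPRY1 by 11.3-fold with GSK-J5 and 12.1-fold with GSK-J4. For DUSP6 it was 3.12-fold and 2.36-fold lower. It was higher for DUSP5 by 2.97-fold and 2.56-fold, and for DUSP4 by 1.53-fold and 2.03-fold. OVCAR-3 differed from this: DUSP5 was 2.11-fold higher in replicate 3 with GSK-J5 and 1.27-fold lower with GSK-J4, and SPRED1 was 1.68-fold and 3.62-fold higher. In CAOV3 replicate 3 stayed within 1.61-fold of the mean of replicates 1 and 2 for all 10 genes. With 1 library per group in the second set, these differences have no replicate check, and the medium text, kit and enrichment cannot be told apart in them.

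**Figure D4:**
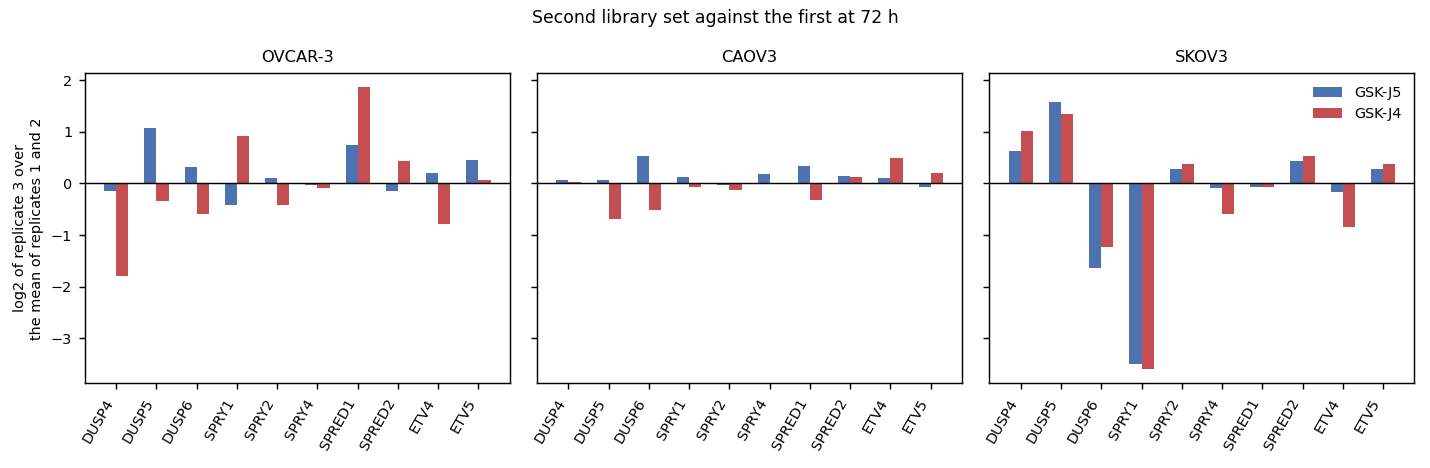
Log2 of the CPM of replicate 3 over the mean of replicates 1 and 2 at 72 h, for each gene and line, with GSK-J5 in blue and GSK-J4 in red. SPRY1 in SKOV3 reaches -3.49 and -3.60, and in OVCAR-3 the bars of both compounds differ in direction for DUSP5 (1.07 and -0.35).

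The standing level of these genes, measured with GSK-J5 at 72 h, was lower in OVCAR-3 than in the other lines for most of them. Between genes only the CPM per kb of exon can be compared. In OVCAR-3 the order per kb ran from SPRY4 (0.331 ± 0.0146, SD, n = 3) over DUSP4 (0.356 ± 0.0321), DUSP6 (0.556 ± 0.129) and ETV5 (0.691 ± 0.137) to SPRED1 (3.34 ± 1.07). Above it came SPRY2 (4.24), DUSP5 (4.78), ETV4 (4.81), SPRY1 (4.84) and SPRED2 (8.04 ± 0.484). The ranges of SPRY4 and DUSP4 overlapped, as did those of DUSP6 and ETV5 and those from SPRED1 to SPRY1, while a wide gap separated the lowest 4 genes from the rest. In CAOV3 the order was SPRY4 (3.01 ± 0.236), ETV4 (4.75), DUSP6 (4.81), SPRY1 (6.48), SPRED1 (9.26), DUSP4 (11.8), ETV5 (12.4), SPRY2 (16.0), SPRED2 (20.4) and DUSP5 (21.0 ± 1.44). Of its neighbours, SPRY4 and ETV4, SPRY1 and SPRED1, SPRED1 and DUSP4, ETV5 and SPRY2, and SPRY2 and SPRED2 did not overlap, and the others did. In SKOV3 it ran from DUSP6 (2.34 ± 1.21) and SPRY4 (2.43 ± 0.212) over ETV4 (5.49), SPRY1 (6.09 ± 4.66), SPRY2 (6.35), DUSP4 (10.5), SPRED1 (11.1), DUSP5 (15.8 ± 10.9) and ETV5 (16.4) to SPRED2 (24.3 ± 4.51). There all neighbours overlapped except SPRY4 and ETV4, SPRY2 and DUSP4, and ETV5 and SPRED2.

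**Figure D5:**
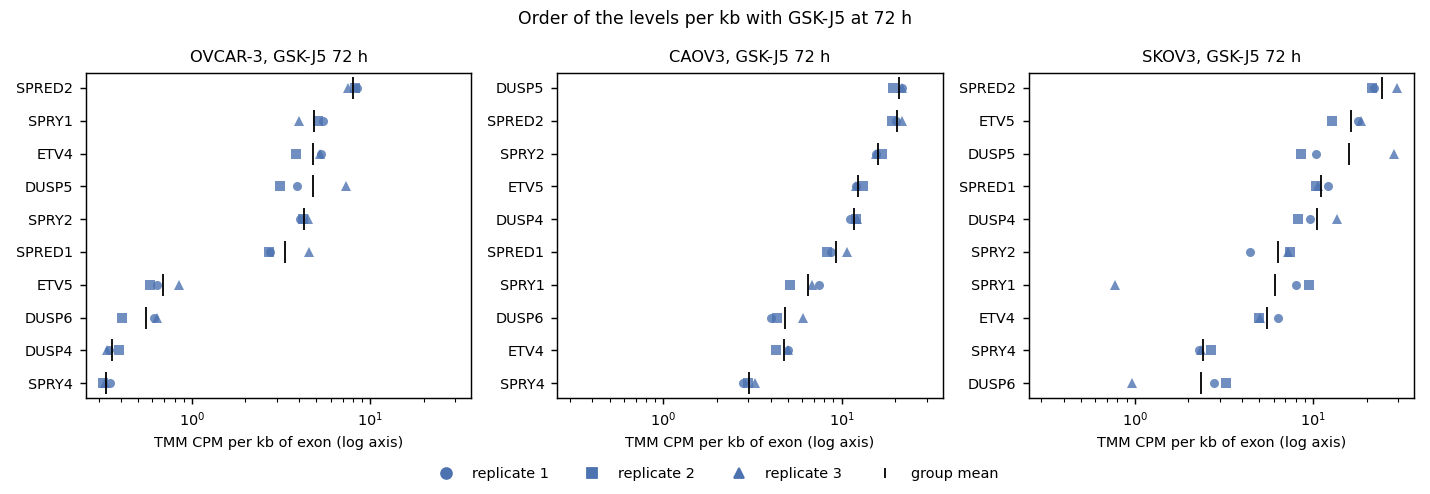
TMM-scaled CPM per kb of exon on a log axis in the 3 GSK-J5 libraries of 72 h of each line, genes ordered by the mean (black mark). In OVCAR-3 the genes SPRY4, DUSP4, DUSP6 and ETV5 stay under 1, whereas in CAOV3 the lowest gene, SPRY4, is at 3.01.

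Between the lines, the levels of the 9 GSK-J5 libraries of 72 h were compared in 1 edgeR fit. These levels were among the values the genes were selected on, so the differences are a description, without p-values. Against CAOV3, the level in OVCAR-3 was 32.8-fold lower for DUSP4 (log2 -5.04, SE 0.194), with 2.59 ± 0.233 CPM against 85.4 ± 4.03 (SD, n = 3). ETV5 had a log2 value of -4.18 (SE 0.187), SPRY4 -3.18 (SE 0.189) and DUSP6 -3.11 (SE 0.430). DUSP5 was 4.85-fold lower, with 12.5 ± 5.91 CPM in OVCAR-3 and 54.9 ± 3.77 in CAOV3 (log2 -2.28, SE 0.284). SPRY2 (-1.91), SPRED1 (-1.49) and SPRED2 (-1.33) were lower as well, while the intervals of SPRY1 (log2 -0.48, interval -1.80 to 0.84) and ETV4 (0.02, interval -0.40 to 0.45) held 0. The adjusted threshold was passed by 8 of the 10 genes, all lower, where 27.6% of 19079 genes were lower and 54.5% differed (62.2% on replicates 1 and 2 alone), and the groups did not overlap for the same 8, against 33.1% of all genes. Nothing is read from these counts.

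Against SKOV3, DUSP4 was at -4.84 (SE 0.193), ETV5 at -4.56 (SE 0.190), SPRY4 at -2.86, SPRED1 at -1.76 and SPRED2 at -1.57. DUSP5 was 3.09-fold lower in OVCAR-3 (log2 -1.63, SE 0.278), and at -1.43 (SE 0.157) without replicate 3. DUSP6 was at -2.03 (SE 0.426), and at -2.54 without replicate 3. SPRY2 was at -0.56 (SE 0.194) with overlapping groups. SPRY1 was at -0.08 with all libraries, a value whose sign turned with library totals (0.03), and at -0.71 (SE 0.175) on replicates 1 and 2 alone. ETV4 was at -0.18 (interval -0.60 to 0.24). Again 8 genes passed, all lower, where 28% of all genes were lower and 57.5% differed, and in 7 the groups did not overlap, against 30.6%. DUSP6 no longer passed without replicate 1 or 2, and SPRY2 without replicate 2 or 3, with voom, with library totals or in the fit of 18 libraries. On replicates 1 and 2 alone 8 passed, SPRY1 in place of SPRY2, against 64.7% of all genes. Both comparisons share the OVCAR-3 libraries.

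Between CAOV3 and SKOV3, SPRY2 was 2.55-fold higher in CAOV3 (log2 1.35, SE 0.194) and DUSP6 2.12-fold higher (log2 1.08, SE 0.403). DUSP5 was at 0.65 (interval 0.04 to 1.26) and at 1.11 (SE 0.146) without replicate 3. DUSP4 was at 0.19 (interval -0.16 to 0.55) and ETV5 at -0.38 (interval -0.73 to -0.02). SPRY2 and DUSP6 passed, 2 of 10 where 59.8% of all genes differed and 30.4% were higher. DUSP6 did not pass without any one of the replicates (0.47 without replicate 3), with the replicate block, with no filter or in the fit of 18 libraries. On replicates 1 and 2 alone 5 genes passed, DUSP4, DUSP5 and SPRY2 higher in CAOV3 and SPRY1 and SPRED1 lower, against 67.2% of all genes, 33.2% higher and 33.9% lower. Groups did not overlap for DUSP6, SPRY2 and SPRY4, higher, and ETV4, lower, 4 of 10 against 65.5% of all genes. The median over the 10 genes was 0.25 here, against -2.09 and -1.69 for OVCAR-3 relative to CAOV3 and SKOV3, with medians of 0.00, 0.01 and 0.05 over all genes.

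The levels that OVCAR-3 reached with GSK-J4 at 72 h stood differently to the controls of the other lines. DUSP5 reached 34.2 ± 6.08 CPM (SD, n = 3), beside 54.9 ± 3.77 in CAOV3 and 41.3 ± 28.5 in SKOV3. On replicates 1 and 2 alone its mean was 36.8 CPM, above the 24.9 of SKOV3. DUSP4 reached 16.6 ± 8.98 CPM, beside 85.4 ± 4.03 and 76.4 ± 20.5, and ETV5 8.99 ± 0.780, beside 72.2 ± 4.01 and 95.2 ± 18.1. SPRY2 reached 18.4 ± 2.90 CPM, beside 48.5 ± 2.23 and 19.3 ± 5.09. ETV4, with control means of 17.3, 17.1 and 19.8 CPM in OVCAR-3, CAOV3 and SKOV3, reached 37.7 ± 10.7 CPM. These levels are set side by side without a test.

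Of the other genes of the pathway, taken from 6 lists of 74 genes, 73 were tested. By the adjusted threshold 19 rose and 2 fell with GSK-J4 in OVCAR-3 at 48 h, or 28.8%. Of all genes 18.9% were called, 11.3% higher. The median log2 value of the 73 was 0.35. Among the receptors, EGFR, the epidermal growth factor receptor, rose (log2 2.31, SE 0.511, edgeR adjusted p = 0.0282) from a mean of 92.5 to 451 CPM, and MET, the hepatocyte growth factor receptor, rose by 0.97. These 2 of 9 receptors passed as higher and 0 passed as lower, while the median of the receptors was -0.95. ERBB2 (-1.33), FGFR1 (-1.13), FGFR3 (-1.16) and IGF1R (-1.15) had intervals below 0 but did not pass. ERBB3 was at -0.95, FGFR4 at -0.35 and FGFR2 at -0.01. In the cascade from adaptors to ERK, 4 of 28 genes rose and 1 fell. They included RPS6KA2, a ribosomal S6 kinase downstream of ERK (1.77, SE 0.375), and BRAF, the kinase above MEK (1.40, SE 0.268). Of 7 other MAP kinase phosphatases, DUSP1 rose (2.61, SE 0.442), from 14.8 to 88.5 CPM, as did DUSP8 (1.43, SE 0.220), and 0 fell. Of 5 other feedback inhibitors tested, ERRFI1, an inhibitor of EGFR, passed as higher (0.82) and 0 passed as lower. Their median was -0.48: IL17RD was at -0.93, LRIG1 at -0.77, SPRED3 at -0.48 and CBL at 0.23. Other ERK target genes rose in 7 of 15 cases and fell in 1, led by UPP1, uridine phosphorylase (3.45, SE 0.600), and MYC (2.45, SE 0.476). The gene that fell was EGR1 (-1.03, SE 0.209), an immediate early transcription factor, and in the cascade it was NF1 (-0.79, SE 0.221), both named after their values were seen. Of 9 ETS factors and their repressors 3 rose and 0 fell, among them ERF (1.57), an ETS repressor that ERK controls, and ETS2 (0.79). The calls did not hold without any single library of 48 h, which leaves 1 library in a group. On replicates 1 and 2 alone 53 of the 73 passed, against 59% of all genes.

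At 72 h 0 of the 73 passed in any line by edgeR. In OVCAR-3 34 had an unadjusted p under 0.05, against 43.1% of all genes, and the DESeq2 Wald test called 21 higher and 11 lower, against 37% of all genes. In CAOV3 20 did, against 16.3%, and DESeq2 called 5 of the 57 it gave an adjusted p, against 8.41%. In SKOV3 3 did, against 3.5%, and DESeq2 called 0. The voom test called 0, 4 and 0, against 0.0238%, 3.24% and 0.0883% of all genes.

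With GSK-J5, 36 of the 73 other pathway genes were lower in OVCAR-3 than in CAOV3 and 13 higher, and 47 were lower and 13 higher than in SKOV3. Of all genes tested 27.6% and 28% were lower, and 54.5% and 57.5% differed in either direction. Other ERK targets were lower in 9 of 15 cases against CAOV3 and in 10 against SKOV3, and higher in 2 and 2. PHLDA1, an ERK-induced gene, was lower by log2 values of -5.37 (SE 0.243) and -7.91 (SE 0.264), from 56.0 and 335 CPM in CAOV3 and SKOV3 to 1.36. MET was at -5.33 against CAOV3 (10.7 and 431 CPM). The cascade genes were lower in 15 and 20 of 28 cases and higher in 5 and 3. NF1, the RAS inhibitor, was higher in OVCAR-3 than in CAOV3 (2.78, SE 0.145). ETS factors were lower in 3 and 6 of 9, with ETS1 at -3.82 against SKOV3, and higher in 1 and 1. The other MAP kinase phosphatases were lower in 5 and 3 of 7 cases and higher in 2 and 2, with medians of -1.34 and 0.60. DUSP1 was lower in OVCAR-3 than in CAOV3 (-2.13, SE 0.278). Of the 5 other feedback inhibitors tested, 0 and 2 were lower and 2 and 2 higher, with medians of 0.16 and 0.34. Receptors were lower in 4 and 6 of 9 cases and higher in 1 and 3, with medians of 0.24 and -1.29.

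Of the targets of the compound, KDM6A had 19.1 to 41.9 CPM over all 22 libraries and KDM6B 25.4 to 189. KDM6B was higher in OVCAR-3 than in CAOV3 and SKOV3 with GSK-J5 (log2 1.04, SE 0.120, and 1.53, SE 0.122). It rose with GSK-J4 in OVCAR-3 at 48 h (0.89, SE 0.158, adjusted p = 0.0188 in edgeR). At 72 h its log2 value was 0.16 (SE 0.142) in OVCAR-3, -0.46 (SE 0.151) in CAOV3 and 0.00 (SE 0.114) in SKOV3, and 0 of these passed. KDM6A was at 0.33, -0.01, -0.25 and 0.00 in the same order, and 0 of these passed either. The compound acts on the proteins, so these levels do not check its action.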

How the data were processed

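The deposited values are raw counts per gene, as whole numbers without normalization, in 3 tables of 58825 Ensembl identifiers. Per the submitters' processing notes, STAR, DESeq2 and GRCh38 (hg38) were used, with no version or role given. Not given in the sources used here is the counting tool, its strand setting or the annotation release. Coordinates and exon lengths are from GENCODE 29, matched on identifiers without version. A column header with a shortened time and replicate was taken for replicate 3 of OVCAR-3 with GSK-J4 at 72 h, which no other column matches. The number of genes called in OVCAR-3 at 72 h moved when this library was left out. Nothing says that replicates were separate cultures, so the p-values reflect only library-to-library spread, which may be technical.

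Counts were analysed in R 4.3.3 with edgeR 4.0.16: filterByExpr with a minimum count of 10, TMM, glmQLFit (robust) and glmQLFTest, with the library set as a term and Benjamini-Hochberg adjustment over all genes tested at 0.05. The 48 h difference came from a fit of all 10 OVCAR-3 libraries, each line at 72 h from its own 6, and levels between lines from the 9 GSK-J5 libraries of 72 h. SE is the absolute log2 value over the square root of F, and 95% intervals use the t distribution. CPM in the text come from a TMM scaling of all 22 libraries. The scripts were tested on simulated data. Floors from counts cover counting error only. Alternatives used DESeq2 1.42.0, limma 3.58.1, no filter, no set term, a replicate block, other library sets and left-out replicates or libraries. Library totals in place of TMM were added after seeing the data.

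The genes and lists were chosen with earlier results of these data known, so the fits give the 10 genes' differences as a description, those of GSK-J5 levels between lines included. Named genes were all 10, KDM6A and KDM6B, the 2 called genes with the largest change from each list and comparison, and the 5 genes most correlated with DUSP5 among those whose mean log2 CPM reached 1. Not all genes this rule names are printed. Deviations of same-numbered libraries from their group means correlated at 0.552, 0.562 and 0.851 in SKOV3, above 0.1 in all pairs, which follows the library set. A pair below 0.1 was found in CAOV3 and in OVCAR-3 at 72 h, and 48 h had only 2 pairs.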

Additional observations from a re-analysis of the deposited data

How the results depend on the processing

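The number of the 10 genes called in OVCAR-3 at 48 h was 4, and 0 to 5 with a replicate or library left out. With a replicate block it was 1. At 72 h in OVCAR-3 it was 0, and 6 with the DESeq2 Wald test (37% of all genes). It was 2 with no filter on low counts and 9 on replicates 1 and 2 alone (71.7% of all genes). It was 7 both in the fit of all 10 OVCAR-3 libraries and in the fit of the 18 libraries of 72 h. With a replicate or library left out it ran from 0 to 9. In CAOV3 it was 0, 1 each with the Wald test, with voom and with no filter, 3 on replicates 1 and 2 alone, and 0 to 3 with a replicate or library left out. SKOV3 stayed at 0 under all alternatives run. With GSK-J5, OVCAR-3 differed from CAOV3 in 8 genes under every alternative run, and from SKOV3 in 8, or 6 to 8 with a replicate left out. CAOV3 differed from SKOV3 in 2, in 1 each with no filter and with the replicate block, in 5 on replicates 1 and 2 alone, and in 1 to 5 with a replicate left out. SPRY1 turned from 0.40 to -0.48 in that comparison on replicates 1 and 2 alone, and ran from -0.48 to 1.21 with a replicate left out. For the fits with no filter, no set term or a replicate block no share of all genes is given. The same holds for single left-out libraries and for the larger fits of 72 h. Nothing is read from those counts, here or for the other pathway genes below.

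For the other pathway genes at 48 h the 21 calls became 36 with the Wald test, 9 with no set term, 7 with the replicate block, and 53 both on replicates 1 and 2 alone and on the 4 libraries of 48 h. They ran from 0 to 53 with a replicate or library left out. At 72 h in OVCAR-3 the 0 calls became 32 with the Wald test, 9 with no filter, 54 on replicates 1 and 2 alone, 36 in the fit of 10 libraries and 40 in that of 18, and 0 to 56 with one left out. In CAOV3 they became 5, 4 with voom, 6 with no filter, 17 on replicates 1 and 2 alone, and 0 to 21 with one left out, and in SKOV3 they stayed at 0. With GSK-J5 the counts of 49, 60 and 46 ran from 39 to 60, 48 to 63 and 34 to 51 with a replicate left out. At 72 h, all same-numbered pairs correlated above 0.1 only in SKOV3, which follows the library set. The block left the calls among the 10 genes there at 0, as did all alternatives run. A left-out fit has fewer libraries and fewer residual degrees of freedom. Counts rose in some of these fits and fell in others, and the cause was not tested.

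Library totals in place of TMM, chosen after seeing the data, moved the median of all genes from -0.03 to -0.24 at 48 h and from -0.08 to -0.47 at 72 h in OVCAR-3. DUSP5 was then at 1.32 and 1.14, DUSP4 at 2.43 and 2.08, ETV5 at 1.00 and 0.78, ETV4 at 0.55 and 0.68, SPRY2 at 0.79 and 0.10, and SPRY4 at 0.15 and 0.61. SPRED1, SPRED2 and SPRY1 at 48 h turned to values below 0.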
